A study of Mus musculus with 9 samples.

Results

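The neuregulins and their receptors are a ligand and receptor family of 8 genes in the mouse: the receptor tyrosine kinase genes Erbb4, Erbb2, Erbb3 and Egfr and the ligand genes Nrg1, Nrg2, Nrg3 and Nrg4. The members were selected by symbol, as 8 of the 32661 entries of the count tables that are neither spike-ins nor mitochondrial. They were read in 2035 of 3455 wells, those in which 2000 or more genes were detected, total counts did not exceed 50000 and the mitochondrial share stayed under 15%. All 8 symbols were found in the tables. The level of a gene is given in CPM, counts scaled to a common total per plate, after trimmed mean of M values (TMM) scaling over the plates.

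Neuregulins are membrane-anchored or secreted proteins with an EGF-like domain, and most are released or exposed at the cell surface by proteases. They bind ErbB3 or ErbB4, which then pair with themselves, with each other or with ErbB2, a receptor without a known soluble ligand of its own. ErbB3 has little kinase activity, whereas EGFR responds to EGF and related ligands and not to neuregulins. In the forebrain, neuregulin signalling through ErbB4 is known for its role in the migration and the synapses of interneurons, and Erbb4 is a known gene of midbrain dopamine neurons.

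Single cells of the ventral midbrain were profiled with SORT-seq, which follows the CEL-seq2 chemistry and sorts each cell into its own well. The 9 plates came from mice of 1 line, VGAT:Ai14:PITX3-GFP, in which VGAT-Cre switches on tdTomato in every cell that has ever expressed the vesicular GABA transporter gene Slc32a1, and in which GFP reports Pitx3, a transcription factor of midbrain dopamine neurons. The plates with tdTomato cells are called VGAT (4 at E16, embryonic day 16, and 3 at P0, the day of birth), and the plates with cells that also carried GFP are called VGAT + PITX3 (1 at each stage). Animals of several litters were used at each stage, no untreated or wild-type line was included, and the labels do not say which animals a plate holds, so p-values measure the spread between plates, which may be technical. The sort takes any cell with a history of Slc32a1 expression, and double-positive cells were sampled far above their natural frequency.

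The kept wells of a plate numbered 44 to 305 and summed to between 1435919 and 5408710 counts, so that 3 counts correspond to between 0.566 and 2.02 CPM on a plate. VGAT P0 replicate 1 was the plate with 44 wells. The names of the wells carry a second plate label that differs in stage or sort on 6 of 9 plates. The first label, which matches the sample titles, was used. After each well had been drawn down at random to 4000 counts (thinned), Pitx3 was found in 38.5% and 25.7% of the wells of the VGAT + PITX3 plates at E16 and P0 and in 0% to 0.592% of the wells of a VGAT plate. In the same wells Gad1, which makes GABA, was found in 93.4% ± 2.1 (SD, n = 7 plates) of VGAT wells and 1.81% ± 0.28 (SD, n = 2 plates) of VGAT + PITX3 wells, and Slc32a1 in 56.0% ± 9.6 and 49.5% ± 1.5. By stage, Slc32a1 was found in 42.3% to 55.7% of wells on the VGAT plates at E16 against 48.5% on the VGAT + PITX3 plate, and in 62.4% to 67.4% against 50.6% at P0, so that the double-positive plate was the lower at P0. In wells thinned to 8000 counts both double-positive plates (61.0% at E16 and 68.9% at P0) were below all VGAT plates of their stage.

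In total counts, the family was carried in these neurons by 1 receptor and 3 ligands. Erbb4, Nrg1, Nrg2 and Nrg3 gave at least 72 counts on every plate, Egfr gave 1 to 32 and Nrg4 1 to 10 counts per plate, and Erbb2 and Erbb3 were at or near 0. The counts of Erbb4, Nrg1, Nrg2 and Nrg3 were mostly intronic. Exonic counts were at least 21 on every plate for Erbb4, Nrg1 and Nrg3, and 1 and 0 in all for Erbb2 and Erbb3. For Nrg2 and Egfr they overlapped, at 6 to 21 and 0 to 19 per plate (137 and 67 in all). The split of Nrg2 from Egfr thus rests largely on intronic reads. Erbb4 was the only tested member that was called between the sorts. The plot of levels by plate shows all members.

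**Figure D1:**
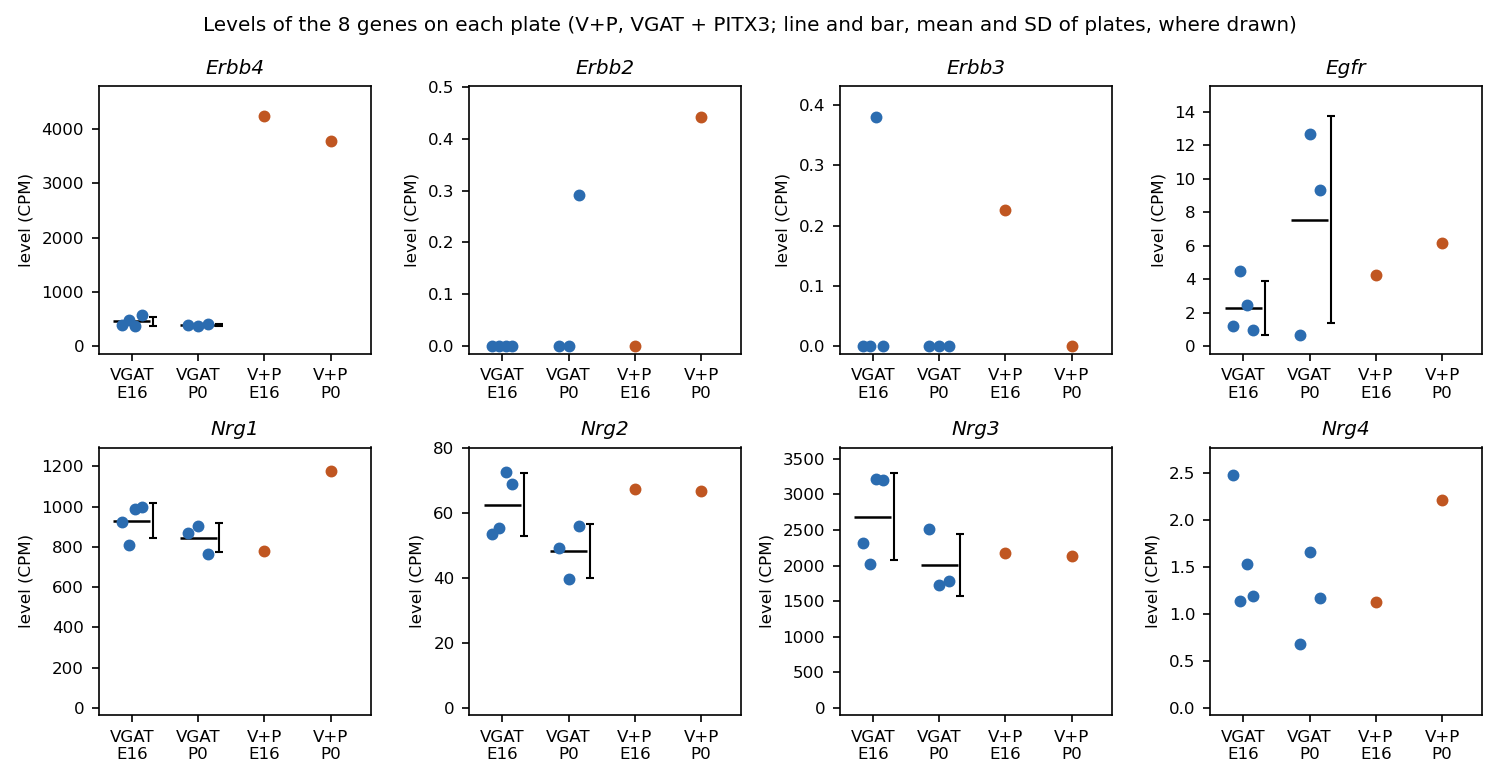
Levels of the 8 genes in CPM (linear axes) on each of the 9 plates, 1 point per plate, grouped by sort and stage (V+P, VGAT + PITX3), with the mean (line) and SD (bar) of the VGAT plates of each stage where the counts allow them. Both VGAT + PITX3 plates lie far above all 7 VGAT plates for Erbb4, and the scales of Erbb2, Erbb3 and Nrg4 stand for single counts.

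Erbb4, the neuregulin receptor with a working kinase, lies on chromosome 1 (minus strand, chr1:68032186-69108059, GRCm38) and spans 1075.874 kb. On the VGAT plates at E16 it stood at 392, 482, 382 and 568 CPM, and at P0 at 398, 381 and 405 CPM. On the VGAT + PITX3 plates it stood at 4238 CPM at E16 and 3769 CPM at P0. The sorts did not overlap, and the mean of the VGAT + PITX3 plates (4003 CPM ± 331, SD, n = 2) was 9.32-fold that of the VGAT plates (430 CPM ± 70.1, SD, n = 7). Erbb4 ranked 6 of 32661 entries by mean level on the VGAT + PITX3 plates and 297 on the VGAT plates. Its share of all counts was 0.40% in the former and 0.0430% in the latter.

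With stage as a covariate, the log2 fold change of Erbb4 between the sorts was 3.25 (SE 0.13), with an adjusted p of 7.6e-10 in edgeR's quasi-likelihood test with Benjamini-Hochberg adjustment over 14624 genes. Of the 5 members that passed the filter on low counts, Erbb4 was the 1 that was called, in a comparison in which 8.93% of all tested genes were called. Among the 692 genes called higher in VGAT + PITX3 wells, 95 had a larger fold change than Erbb4 and 2 had a higher mean level on these plates. The fold change was between 3.20 and 3.30 with any 1 of the 9 plates left out. The summed level of 5 dopamine neuron genes (Th, Slc6a3, Slc18a2, Ddc and Pitx3) moved with Erbb4, from 20.9 to 53.1 CPM on VGAT plates to 1937 and 2474 CPM on VGAT + PITX3 plates, as the sort on Pitx3-GFP sets it.

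**Figure D2:**
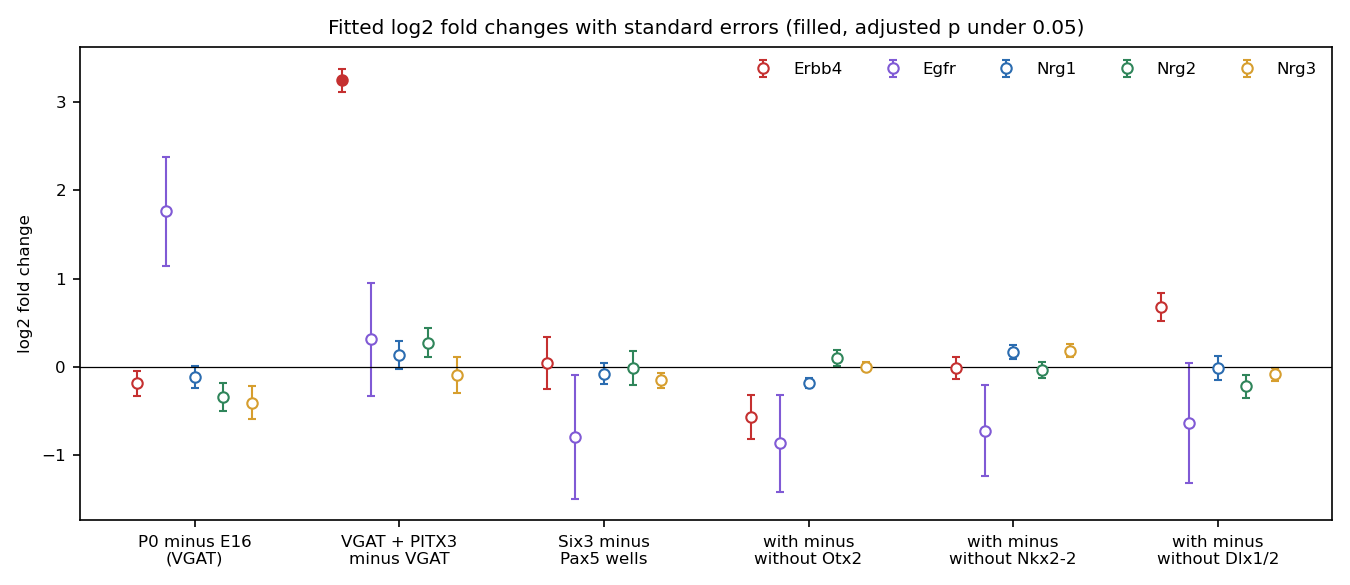
Log2 fold changes (points) and standard errors (bars) of the 5 members tested in 6 comparisons of plates or of classes of wells. The filled point, Erbb4 between the sorts, is the only 1 with an adjusted p under 0.05, at a log2 fold change of 3.25.

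The difference in Erbb4 held from well to well. After thinning, Erbb4 was found in 299 of 299 VGAT + PITX3 wells at E16 and in 249 of 249 at P0, where counting error alone allows a share of up to 1.00% and 1.2% of wells without it. In VGAT wells the share was 37.7%, 37.7%, 37.9% and 46.8% on the E16 plates and 48.8%, 44.3% and 33.1% on the P0 plates. For comparison, the dopamine genes Th and Slc6a3, which the VGAT sort should mostly lack, were found in 0.715% ± 1.067 and 0.837% ± 0.898 (SD, n = 7) of the thinned VGAT wells, so the share of Erbb4 was far above that of these genes at the same depth. Both were also less common than Erbb4 in thinned VGAT + PITX3 wells, at 48.6% ± 1.2 and 45.1% ± 3.0 (SD, n = 2). The source of the Erbb4 counts in VGAT wells was not tested. Before thinning, Erbb4 was found in 50.9% to 75% of the wells of a VGAT plate. With exonic counts alone, drawn down to an equal number per well, Erbb4 was found in 66.9% and 59.8% of VGAT + PITX3 wells at E16 and P0 and in 12.4% ± 2.9 of VGAT wells (10% to 18.2% on a plate, SD, n = 7), so that its detection in every double-positive well rests on intronic reads while the sorts remain apart.

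The median VGAT well held 0 Erbb4 counts of 4000, and the median VGAT + PITX3 well 14. No VGAT + PITX3 well was at or below the VGAT median, the lowest being 1 count. The distributions still overlapped, since 43 of 1408 VGAT wells (3.05%) reached the VGAT + PITX3 median and the highest VGAT well held 64 counts. Thus Erbb4 was uneven among VGAT cells and general among double-positive cells.

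**Figure D3:**
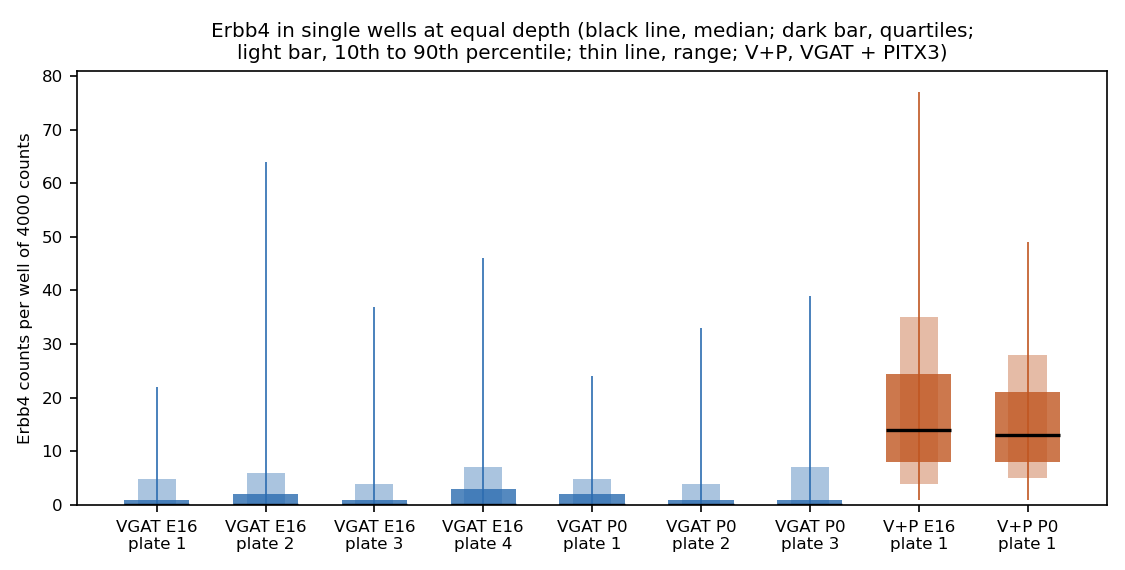
Erbb4 counts per well after thinning to 4000 counts, by plate (V+P, VGAT + PITX3), as the median, the quartiles, the 10th to 90th percentile and the range. The medians are 0 on the 7 VGAT plates and 14 and 13 on the VGAT + PITX3 plates, and all plates hold single wells above 20 counts.

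The double-positive wells were further split by Slc6a3, the dopamine transporter gene. At E16, the mean Erbb4 count per thinned well was 12.0 in 141 wells with Slc6a3 and 22.9 in 158 wells without it. At P0 it was 13.7 in 107 wells with and 16.2 in 142 wells without Slc6a3. The direction was the same on both plates, and with 1 plate per stage no test was made. Nrg3 and Nrg1 ran the same way, with 5.45 against 13.1 counts at E16 and 7.14 against 9.67 at P0 for Nrg3, and 2.62 against 3.22 and 3.77 against 4.96 for Nrg1.

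Nearly all Erbb4 counts were intronic. Over the 9 plates 92.3% of its exonic and intronic counts lay on introns (90.2% to 93.9% on a plate), whereas introns held 20.1% to 29.96% of the counts of all genes. The share was 97.9% for Nrg1, 98.4% for Nrg3, 93.2% for Nrg2 and 50.7% for Egfr, whose 136 counts are few. The longest members are Erbb4, Nrg1 and Nrg3, with 1063.519, 1059.128 and 1097.32 kb of intron. Per 100 kb of intron, Nrg3 had 214 intronic CPM ± 56.4, Nrg1 82.6 ± 8.06, Erbb4 37.3 ± 6.40 and Nrg2 29.3 ± 6.97 on the VGAT plates (SD, n = 7). On the VGAT + PITX3 plates Erbb4 had 347 ± 26.3, above Nrg3 at 194 ± 3.25 and Nrg1 at 91.1 ± 26.2 (SD, n = 2). In intronic levels per length Erbb4 was thus below Nrg3 and Nrg1 in VGAT wells and above both in VGAT + PITX3 wells. In exonic levels per kb of exon the order with Nrg1 differed in VGAT wells, with 6.10 CPM ± 0.57 for Nrg3, 2.64 ± 0.50 for Erbb4 and 1.84 ± 0.50 for Nrg1 (SD, n = 7), and in VGAT + PITX3 wells Erbb4 stood at 25 ± 3.9, Nrg3 at 5.01 ± 0.72 and Nrg1 at 1.29 ± 0.47 (SD, n = 2). The primers of the method bind the poly-A tail, so exonic counts need not grow with exon length. Undivided exonic levels on the VGAT plates had the same order, at 41.6 CPM ± 3.9 for Nrg3, 32.6 ± 6.2 for Erbb4 and 19.1 ± 5.2 for Nrg1.

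**Figure D4:**
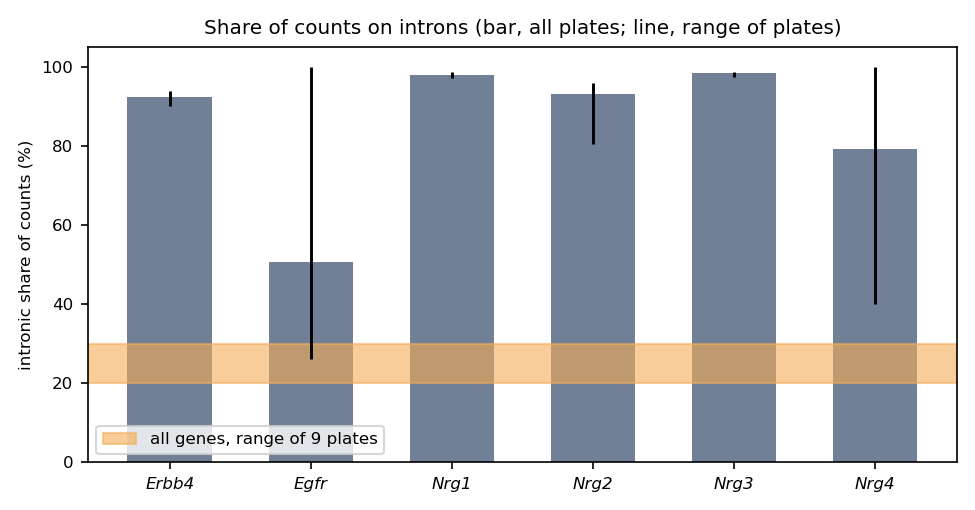
Share of counts that lie on introns (percent) for the 6 members with at least 20 counts, over all plates (bar) and as the range of plates (line), with the range of 20.1% to 29.96% for all genes (band). Erbb4, Nrg1, Nrg2 and Nrg3 exceed 90% over all plates.

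The exonic counts of Erbb4 gave the same contrast. They were 25.2, 38.9, 24.9 and 34.4 CPM on the VGAT plates at E16 and 28.9, 37.5 and 38.8 CPM at P0, against 343 and 275 CPM on the VGAT + PITX3 plates. The log2 fold change of exonic Erbb4 was 3.24 (SE 0.15, adjusted p = 1.0e-09, edgeR), and the exonic and intronic ratios were 9.46 and 9.30. Of 8 annotated transcripts on the same strand inside Erbb4, 6 had at least 10 counts, and the 5 that were tested were all called higher in VGAT + PITX3 wells, with log2 fold changes of 3.32 for Gm16076, 3.22 for Gm37735, 3.47 for Gm37769, 3.66 for Gm19335 and 2.62 for Gm37061. Reads of these entries and of Erbb4 introns cannot be told apart by position alone, so they are uncertain as separate genes and are no independent support.

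Erbb2, the co-receptor (chr11:98412470-98437716, GRCm38), had 2 counts in all, 1 on VGAT P0 replicate 3 and 1 on the VGAT + PITX3 plate at P0. Erbb3, the receptor that signals through its partner (chr10:128567523-128589652), had 3 counts, 2 on VGAT E16 replicate 3 and 1 on the VGAT + PITX3 plate at E16. Both were below the level of 3 counts on every plate, at 0 on most, and neither passed the filter in any comparison. On the thinned scale a share of 0 on a plate allows up to between 1.00% and 6.98% of wells with a count. The 3' part of Erbb2 overlaps Mien1 on the opposite strand (2074 counts), and no source used here gives the strand setting used for counting.

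Egfr, the EGF receptor (chr11:16752203-16918158), was rare and unevenly spread. Its level was 1.24, 4.53, 2.48 and 0.993 CPM on the VGAT plates at E16, 0.673, 12.7 and 9.33 CPM at P0, and 4.28 and 6.19 CPM on the VGAT + PITX3 plates at E16 and P0. The groups overlapped. Egfr was found in 80 of 2035 wells before thinning. Of its 136 counts, 40.01 lay in 33 wells of a cluster led by Chrna2, Nhlh1 and Pax3, and 24.0 in 16 wells of a cluster led by Fabp7, Tnc and Aqp4 (clusters are described with the cell groups). The summed level of 6 astrocyte and radial glia genes was 38.6 to 83.0 CPM on the VGAT plates at E16 and 79.4, 498 and 138 CPM at P0, with 4 to 5 of the 6 genes counted on each plate, and that of 5 oligodendrocyte lineage genes was highest on VGAT P0 replicate 2 at 49.6 CPM. On the VGAT + PITX3 plates the former list stood at 160 and 151 CPM and the latter at 24.6 and 36.3 CPM. Microglia genes gave 2.58 to 54.5 CPM, and genes of endothelium and of dividing cells at most 8.12 and 4.87 CPM, on any plate. The part of these cell types in the Egfr values was not tested.

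Among the ligands, Nrg3 (chr14:38368952-39473088) had the largest counts. It stood at 2311, 2016, 3221 and 3195 CPM on the VGAT plates at E16, at 2508, 1728 and 1776 CPM at P0, and at 2180 and 2136 CPM on the VGAT + PITX3 plates. It was found in 97.1% ± 2.2 of thinned VGAT wells (SD, n = 7) and 94.9% ± 0.9 of thinned VGAT + PITX3 wells (SD, n = 2). Nrg3 ranked 14 of all entries by level on the VGAT plates. Nrg3os, an antisense gene within it, had 248 counts.

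Nrg1 (chr8:31814551-32884029), the most studied ligand of the family, stood at 923, 810, 987 and 998 CPM on the VGAT plates at E16, at 870, 902 and 763 CPM at P0, and at 778 and 1177 CPM on the VGAT + PITX3 plates at E16 and P0. It was found in 81.8% ± 4.4 of thinned VGAT wells and 80.6% ± 1.9 of thinned VGAT + PITX3 wells. Nrg2 (chromosome 18, minus strand) stood at 53.4 to 72.5 CPM on the VGAT plates at E16, 39.7 to 56.0 CPM at P0, and 67.4 and 66.8 CPM on the VGAT + PITX3 plates. Nrg4, a ligand of ErbB4 known mainly from fat tissue (chr9:55220222-55326844), had 48.0 counts in all and 0.673 to 2.47 CPM on a plate, and overlaps Fbxo22 on the opposite strand (2016 counts). For Nrg2 and Nrg3 both VGAT + PITX3 plates lay within the range of the VGAT plates, and for Nrg1 the plate at P0 lay above it and the plate at E16 within it. Against the VGAT plates of the same stage, Nrg1 was below all 4 at E16 and above all 3 at P0, and Nrg2 was within their range at E16 and above all 3 at P0.

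None of the 3 ligands tested was called between the sorts, and Nrg4 did not pass the filter on low counts. The log2 fold changes were 0.13 (SE 0.16, adjusted p = 0.773) for Nrg1, 0.28 (SE 0.16, adjusted p = 0.447) for Nrg2 and -0.09 (SE 0.20, adjusted p = 0.894) for Nrg3, and 0.31 (SE 0.64, adjusted p = 0.882) for Egfr, in edgeR's quasi-likelihood test. Exonic counts gave the opposite sign for Nrg1, at -0.59 (SE 0.29, adjusted p = 0.323).

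In total counts at equal depth, which for these genes are mostly intronic, a ligand gene was found in nearly every well. Of the thinned VGAT wells, 40.5% ± 5.7 held Erbb4 together with at least 1 neuregulin, 58.4% ± 5.3 held a neuregulin without Erbb4, and 0.650% ± 0.801 held neither (SD, n = 7). Of the thinned VGAT + PITX3 wells, 99.3% ± 0.4 held both (SD, n = 2). Nrg1 and Nrg3 were found together in 80.1% ± 5.0 of VGAT wells and 76.4% ± 2.1 of VGAT + PITX3 wells. These shares rest on intronic reads. When only exonic counts were kept and drawn down to an equal number per well, Nrg3 was found in 14.3% ± 3.3 of VGAT wells, Nrg1 in 6.59% ± 2.95 and Nrg2 in 1.25% ± 0.82 (SD, n = 7). In VGAT + PITX3 wells the exonic shares were 12.3% ± 5.2 for Nrg3, 5.04% ± 0.98 for Nrg1 and 1.97% ± 1.85 for Nrg2 (SD, n = 2).

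To find whether members occurred in the same wells more or less often than apart, 7 pairs were compared over the 7 VGAT plates. The test was an exact permutation of the signs of the plates' differences (two-sided), whose smallest p is 0.016. No pair was called after adjustment over the 7 pairs, but a pair that alone reaches the smallest p has an adjusted p of 0.109, so the design could hardly give a call. Nrg2 was found in 22.1% of wells with Erbb4 and 15.8% of wells without it, a difference of 6.36 percentage points ± 4.65 (SD, n = 7) that was positive on 7 of 7 plates, from 1.04 to 12.1 points (exact p = 0.016, the smallest possible, adjusted p = 0.109). That difference was -0.087 points in wells thinned to 8000 counts and 0.12 points in wells thinned to 2000. Nrg3 was found in 97.9% of wells with Nrg1 and 93.4% of wells without it (exact p = 0.031, adjusted p = 0.109, positive on 6 of 7 plates), a difference of 4.53 points ± 3.95. That difference was 1.29 points in wells thinned to 2000 counts, 2.53 points on the 6 plates that could be used at 8000 counts and -4.57 points in exonic counts. For Erbb4 with Nrg1 and Erbb4 with Nrg3 the differences were 2.01 ± 5.68 and 0.594 ± 3.47 points, within the spread of plates. In wells thinned to 2000 counts the difference for Erbb4 with Nrg1 was 6.39 points ± 6.44, positive on 6 of 7 plates (exact p = 0.047, adjusted p = 0.281), and in wells thinned to 8000 counts it was 0.80 points ± 5.38. The other pairs gave 3.14 points ± 7.11 (Erbb4 with Egfr), -0.24 ± 8.08 (Nrg1 with Nrg2) and 1.78 ± 2.41 (Nrg2 with Nrg3). In exonic counts Nrg2 was found in 0% of wells with Nrg1 and 1.56% of wells without it. That difference was positive on 0 of 6 plates (exact p = 0.031, the smallest possible there, adjusted p = 0.156).

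The comparison of P0 with E16 asked how the family changes over the days before birth, in the sort with replicate plates. No member of 5 tested was called, in a comparison in which 4.58% of 13639 genes were called. At an unadjusted p under 0.05 there was 1 member, Egfr, beside 3284 of the 13639 genes. DESeq2 called 0 members and 944 of all genes. Egfr was higher at P0 by 1.76 on the log2 scale (SE 0.62, adjusted p = 0.111, edgeR), and passed the threshold when VGAT P0 replicate 1, which held 1 Egfr count, was left out (log2 fold change 2.20, adjusted p = 0.035) and when low counts were not filtered (adjusted p = 0.0032). The 2 clusters with the highest Egfr levels, which held 40.01 and 24.01 of its 136 counts, were spread unequally over the plates and stages. On VGAT P0 replicate 3, 26.01 of 32.01 Egfr counts lay in 21 wells of the cluster led by Chrna2, Nhlh1 and Pax3. On VGAT P0 replicate 2, 10.00 of 23.00 lay in 7 wells of the cluster led by Fabp7 and 4.00 in 4 wells of the cluster led by Chrna2. At E16, VGAT replicate 2 alone held wells of the Chrna2 cluster (6 wells, 10.00 of 24.01 Egfr counts), and no VGAT plate held wells of the Fabp7 cluster. The part of these cells in the stage difference was not tested. Nrg3 differed by -0.40 (SE 0.19, adjusted p = 0.215), and without the filter on low counts it passed (log2 fold change -0.49, adjusted p = 0.014). The fit without the filter held 30547 genes in place of 13639, with the same counts for the members. Its calls are therefore not read as stronger evidence.

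The other members gave -0.34 (SE 0.16, adjusted p = 0.213) for Nrg2, -0.19 (SE 0.14, adjusted p = 0.454) for Erbb4 and -0.12 (SE 0.12, adjusted p = 0.60) for Nrg1, all from edgeR. In exonic counts Erbb4, Nrg2 and Nrg3 had the opposite sign, at 0.17, 0.72 and 0.01. The interaction of stage and sort, which rests on 1 VGAT + PITX3 plate per stage, called 0 of 6 members, 0% of all genes being called. At an unadjusted p under 0.05 there was 1 member, Nrg1, whose change with stage was more positive by 0.74 (SE 0.25, adjusted p = 0.773) in VGAT + PITX3 wells, and DESeq2 called 0 members. The interaction was 0.04 (SE 0.30) for Erbb4, 0.39 (SE 0.38) for Nrg3, 0.35 (SE 0.33) for Nrg2, 1.33 (SE 1.25) for Nrg4 and -1.21 (SE 1.29) for Egfr.

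The VGAT wells were also split by transcription factors, most of which the study uses to mark groups of GABA neurons, with plates as blocks. In wells with Six3 and no Pax5 against wells with Pax5 and no Six3, 0 of 5 members were called, 0 at an unadjusted p under 0.05 and 0 by DESeq2, where 2.82% of genes were called. Of all 11773 genes, 1286 were at an unadjusted p under 0.05 and DESeq2 called 269. The study uses both genes to mark 2 kinds of neurons of the substantia nigra pars reticulata, but the Six3 class is wider. On VGAT E16 replicate 1 it held 131 of 190 wells, against 13 and 16 wells in the 2 Six3 clusters (SNr-2-like) described below. The classes therefore do not compare these 2 kinds of neurons as such. Erbb4 stood at 338 CPM ± 92.6 in Six3 wells and 351 CPM ± 254 in Pax5 wells (SD, n = 7), and the log2 fold change was 0.04 (SE 0.30). It was -0.79 (SE 0.70) for Egfr, -0.08 (SE 0.12) for Nrg1, -0.01 (SE 0.20) for Nrg2 and -0.15 (SE 0.09) for Nrg3.

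In wells with Otx2, a mark of GABA neurons of the ventral tegmental area, no member was called either, where 4.63% of genes were called. At an unadjusted p under 0.05 there were 2 members, beside 1807 of all 12413 genes. DESeq2 called 0 members and 426 of all genes. Nrg1 was lower on 7 of 7 plates, at 820 CPM ± 75.2 with and 929 CPM ± 93.8 without Otx2 (log2 fold change -0.18, SE 0.06, adjusted p = 0.101, edgeR). Erbb4 was lower on 5 of 7 plates, at 327 CPM ± 160 and 470 CPM ± 98.1 (log2 fold change -0.57, SE 0.25, adjusted p = 0.285, edgeR). Without the filter on low counts both passed the threshold (adjusted p = 0.0014 for Nrg1 and 1.6e-17 for Erbb4). That fit held 30545 genes in place of 12413, with the same counts for both members. These p-values are therefore not read as stronger evidence. Egfr gave -0.86 (SE 0.55), Nrg2 0.10 (SE 0.09) and Nrg3 0.00095 (SE 0.05).

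In wells with Nkx2-2, a mark of midbrain reticular neurons, 0 of 5 members were called, where 3.24% of genes were called. At an unadjusted p under 0.05 there was 1 member, beside 1659 of all 13348 genes. DESeq2 called 0 members and 295 of all genes. Nrg3 stood at 2595 CPM ± 815 with and 2246 CPM ± 456 without Nkx2-2 (log2 fold change 0.18, SE 0.07, adjusted p = 0.246, edgeR). It was higher with Nkx2-2 on 4 of 7 plates, those at E16, and lower on every P0 plate. Without the filter on low counts Nrg3 passed the threshold (log2 fold change 0.16, adjusted p = 0.0032), on the same counts of Nrg3, which is not read as stronger evidence. Nrg1 gave 0.17 (SE 0.08, adjusted p = 0.407) and passed the threshold without VGAT P0 replicate 2 (log2 fold change 0.25, adjusted p = 0.049). Erbb4, Nrg2 and Egfr gave -0.01 (SE 0.13), -0.04 (SE 0.09) and -0.72 (SE 0.51).

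Wells with Dlx1, which the study uses to mark a hypothalamic group, or with the related gene Dlx2, which was added here, came closest to a further difference in Erbb4. On the 6 plates with at least 5 such wells, Erbb4 stood at 482, 621, 324 and 812 CPM in Dlx wells at E16 and at 1153 and 662 CPM at P0, against 375, 361, 377, 541, 312 and 356 CPM in the other wells of the same plates. It was higher in Dlx wells on 5 of 6 plates, VGAT E16 replicate 3 being the exception. The log2 fold change was 0.68 (SE 0.16, adjusted p = 0.061, edgeR), so that 0 of 5 members were called, where 0.662% of genes were called. At an unadjusted p under 0.05 there was 1 member, beside 797 of all 12227 genes. DESeq2 called 0 members and 63 of all genes. Erbb4 passed the threshold in exonic counts (log2 fold change 0.70, adjusted p = 0.032), without wells of high depth (adjusted p = 0.033) and without VGAT E16 replicate 3 (log2 fold change 0.85, adjusted p = 0.0080), as well as without the filter on low counts (adjusted p = 6.0e-11). The fit without the filter held 30040 genes in place of 12227 and the same Erbb4 counts. Its p-value is therefore not read as stronger evidence. The other members gave -0.64 (SE 0.68) for Egfr, -0.01 (SE 0.13) for Nrg1, -0.22 (SE 0.13) for Nrg2 and -0.08 (SE 0.07) for Nrg3.

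To see which cell groups carry the family, the wells were clustered without the 8 members, and clusters were given a name only where at least 3 markers of a group were found. Levels in these clusters are a description, with no test. Of 20 clusters, 18 held at least 30 wells.

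**Figure D5:**
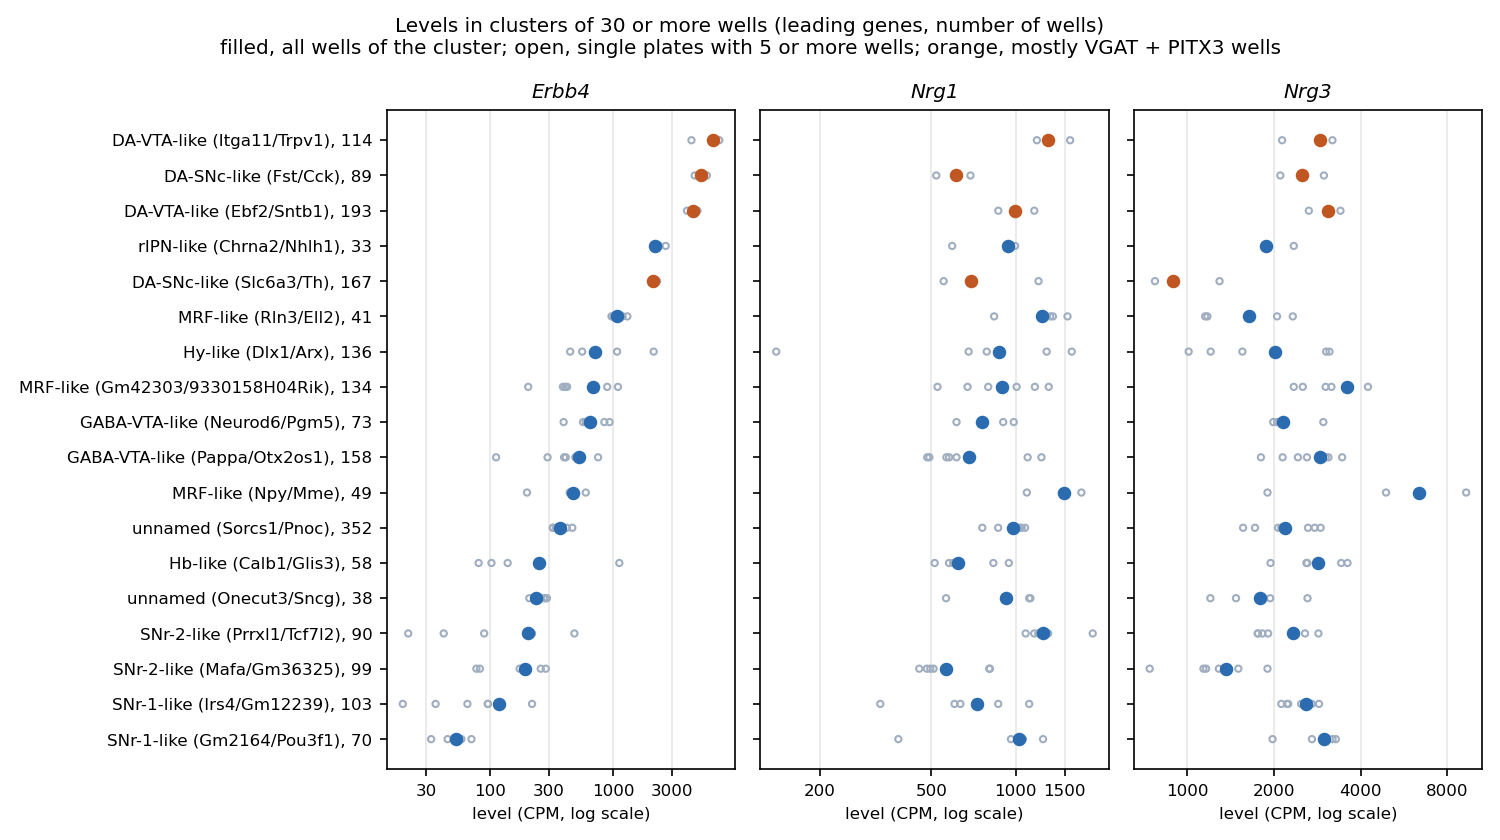
Levels (CPM, log axes) of Erbb4, Nrg1 and Nrg3 in the 18 clusters of at least 30 wells, ordered by Erbb4, over all wells of a cluster (filled) and on single plates with at least 5 wells of it (open, levels of 0 not drawn). Erbb4 spans 52.5 to 6425 CPM, a far wider range than Nrg1 or Nrg3.

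Erbb4 was highest in 3 clusters of double-positive wells: 6425 CPM in a cluster with markers of dopamine neurons of the ventral tegmental area (DA-VTA-like, led by Itga11 and Trpv1, 114 wells), 5134 CPM in a DA-SNc-like cluster led by Fst and Cck (named by the marker list for the substantia nigra pars compacta, 89 wells) and 4487 CPM in a DA-VTA-like cluster led by Ebf2 and Sntb1 (193 wells). The DA-SNc list holds the dopamine neuron genes Th, Slc6a3, Slc18a2, Ddc and Pitx3. It also shares Pitx3, En1 and Lmx1a with the DA-VTA list, so the name does not settle the region of the Fst and Cck cluster. A second DA-SNc-like cluster, led by Slc6a3 and Th (167 wells), had 2111 CPM. On the VGAT + PITX3 plates at E16 and P0 these levels were 7294 and 4333, 5783 and 4597, 4846 and 3987, and 2066 and 2275 CPM in the same order. The cluster led by Slc6a3 and Th was thus below the other 3 on both plates, and over all its wells it also had the lowest Nrg3 of the 18 clusters, at 888 CPM. Its Nrg3 was 771 CPM at E16 and 1293 CPM at P0, and on single VGAT plates at P0 other clusters were lower, among them a SNr-2-like cluster led by Mafa at 740 CPM and the Hy-like cluster at 1010 CPM.

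Among VGAT wells, a cluster with rostral interpeduncular markers (rIPN-like, led by Chrna2, Nhlh1 and Pax3, 33 wells) stood in the range of the double-positive clusters, at 2197 CPM Erbb4. The 2 plates with at least 5 of its wells gave 2675 CPM (VGAT E16 replicate 2, 6 wells) and 2373 CPM (VGAT P0 replicate 3, 21 wells). Egfr stood at 89.7 CPM in this cluster, with a count in 45.5% of its wells, against 0 to 10.2 CPM in the other 17. A midbrain reticular (MRF-like) cluster led by Rln3 had 1083 CPM Erbb4, between 969 and 1305 CPM on 4 plates.

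Over all wells of a cluster, Erbb4 was lowest among the 18 clusters in the 2 Pax5 clusters (SNr-1-like), at 118 CPM in the 1 led by Irs4 (103 wells, 19.5 to 219 CPM on 6 plates) and 52.5 CPM in the 1 led by Gm2164 and Pou3f1 (70 wells, 33.1 to 70.5 CPM on 4 plates). An unnamed cluster of 22 wells led by Dmbx1, too small to be among the 18, had 34.9 CPM. The Six3 clusters (SNr-2-like) followed at 190 and 202 CPM, with ranges over plates that overlap those of the Irs4 cluster. The Six3 cluster at 202 CPM, led by Prrxl1, ranged from 0 to 484 CPM on 6 plates and on 2 of them (0 and 21.6 CPM) lay below every plate of the Gm2164 cluster, so the order of these clusters is not firm. Clusters of GABA neurons of the ventral tegmental area had 527 and 653 CPM, and the Dlx1 cluster (Hy-like) had 718 CPM, with 0 to 2135 CPM on single plates, and their ranges over plates overlapped.

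Nrg3 was highest in an MRF-like cluster led by Npy (49 wells), at 6358 CPM, but its 3 plates gave 1897, 4896 and 9291 CPM. Nrg1 was highest in the same cluster at 1494 CPM, from 1097 to 1719 CPM on these plates, a range that overlapped several clusters. The place of Nrg1 depended on the processing, since at a clustering resolution of 1.2 the highest cluster shared 0% of its wells with this one, and in exonic counts the highest was the SNr-1-like cluster led by Gm2164 and Pou3f1, at 61.3 CPM. Over all wells of a cluster, Nrg2 lay between 46.2 and 82.9 CPM in all 18 clusters. On single plates it varied more, and the highest cluster, the MRF-like one led by Rln3, ran from 15.4 to 163 CPM on 4 plates. The cluster of 16 wells led by Fabp7, Tnc and Aqp4, whose leading genes are glial and which was left unnamed after its genes were seen, although it carried at least 3 markers of a progenitor group, had 1720 CPM Erbb4, 141 CPM Egfr, 470 CPM Nrg1 and 705 CPM Nrg3. These values pool wells of both sorts. On VGAT P0 replicate 2 (7 wells) Erbb4 stood at 979 CPM and Nrg1 at 224 CPM. On the VGAT + PITX3 plate at P0 (6 wells) they stood at 1844 and 922 CPM.

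Over the 18 clusters, the genes with levels most like Erbb4 by Pearson correlation of log2(CPM + 1), among 10117 genes, were Gm16076 (r = 0.99), Gm37769 (r = 0.96) and Gm37735 (r = 0.94), which all lie within Erbb4. Outside Erbb4, and looked up after those had been seen, they were Hlf (r = 0.87), Adgrv1 (r = 0.86) and Ogfod3 (r = 0.86). For Nrg1 they were Zfp644, Wtip and Shank3 (r = 0.79, 0.77 and 0.73), for Nrg2 Ocrl, Acr and AC149090.1 (r = 0.72, 0.72 and 0.71) and for Nrg3 Cpne3, Scai and Pcdhgb6 (r = 0.83, 0.75 and 0.75). The clusters share plates and depth, so these values are descriptions.

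Of 58 other genes of the pathway (other EGF ligands, neuregulin-like proteins, proteases, inhibitors, adaptors and effectors, and scaffolds), 50 were tested between the sorts and 7 were called, 5 higher and 2 lower in VGAT + PITX3 wells, where 8.93% of all tested genes were called, with a median log2 fold change of 0.05 against -0.00 over all genes. Tmeff2, a transmembrane protein with an EGF-like domain, rose by 1.55 (SE 0.14, adjusted p = 3.5e-06, edgeR), from 403 CPM ± 85.9 to 1134 CPM ± 121. Dlg1, a synaptic scaffold, rose by 1.04 (SE 0.18), the adaptor Shc3 by 1.22 (SE 0.30), the transcription factor Stat5a by 1.84 (SE 0.49) and the kinase Map2k1 by 0.53 (SE 0.14). Cblb, a ubiquitin ligase, fell by 1.09 (SE 0.19), and Pik3r1, a regulatory subunit of PI3 kinase, fell by 0.70 (SE 0.17). Of the 9 proteases of the list, which release neuregulins or cut ErbB4, 9 were tested and 0 were called.

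With stage, 4 of 49 tested pathway genes were called, where 4.58% of all genes were called. Cspg5, a neuregulin-like proteoglycan also called neuroglycan C, rose by 0.60 (SE 0.15, adjusted p = 0.046) at P0 and Map2k1 by 0.63 (SE 0.14, adjusted p = 0.029), and the protease gene Adam10 fell by 0.50 (SE 0.12, adjusted p = 0.038) and the scaffold gene Magi2 by 0.67 (SE 0.15, adjusted p = 0.035), all from edgeR. In Six3 against Pax5 wells, 2 of 48 were called (2.82% of all genes), Tmeff2 higher by 0.86 (SE 0.13) and Pik3r1 by 0.58 (SE 0.14). In Otx2 wells 1 of 49 was called (4.63% of all genes), Mapk3 (-0.33, SE 0.08), and in Nkx2-2 wells 2 of 49 (3.24% of all genes), Cblb (0.37, SE 0.09) and Magi2 (-0.41, SE 0.06). DESeq2 called 1 pathway gene in Six3 against Pax5 wells (Tmeff2), 0 in Otx2 wells and 1 in Nkx2-2 wells (Magi2), with adjusted p of 0.074 for Pik3r1, 0.070 for Mapk3 and 0.136 for Cblb. With stage and between the sorts it called 5 and 7. Of all genes DESeq2 called 269 of 11773 in Six3 against Pax5 wells, 426 of 12413 in Otx2 wells and 295 of 13348 in Nkx2-2 wells. With stage it called 944 of 13639 genes, and between the sorts 1375 of 14624. In Dlx wells 0 of 49 and in the interaction 0 of 52 were called by edgeR, with 4 and 2 at an unadjusted p under 0.05, and DESeq2 called 0 among those to which it gave an adjusted p. Nothing particular to the pathway is read from these counts.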

How the data were processed

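The deposited tables hold expected counts per gene and well, which the authors obtained by alignment with STAR to mm10 and by correction of molecular barcodes for collisions. All values above 0 lay within 0.001 of a count corrected for 6 random bases, and 51.7% were not whole. The labels also give 6 bases, whereas the study's methods text gives 4. Total, exonic (spliced) and intronic (unspliced) tables were used, the study's methods name an Ensembl annotation of GRCm38, and the strand setting is not given in the sources used here.

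Wells were kept as described, their counts were summed per plate and rounded, and the sums were tested with edgeR (4.0.16, quasi-likelihood, TMM, filterByExpr, Benjamini-Hochberg adjustment, threshold 0.05), in R 4.3.3. Stage was tested in the VGAT plates, and the sort in all plates with stage as covariate. Classes of wells were summed within plates, with at least 5 wells per class, and fitted with plates as blocks. DESeq2 1.42.0 and limma 3.58.1 served as alternatives. All fits were tested on simulated data. Intervals and limits are exact binomial or 3 counts, at 95%, and cover counting error only. Clusters were built with scanpy 1.11.5 (Louvain, 40 principal components, 15 neighbours, resolution 1), and doublets were not called beyond the limit of 50000 counts. Positions are from GENCODE on GRCm38.

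Depth was 1435919 to 5408710 counts per plate, and 383 well barcodes occurred on all 9 plates, with 0 pairs of identical wells. The alternatives were size factors, no filter on low counts, exonic counts, wells of high depth left out, each plate left out, equal weight per well, the replicate block and other thinning depths. Genes named were all 8 members, the pathway genes that passed the threshold and the 3 genes most like each member. Members and lists were chosen with earlier results of these data known.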

Additional observations from a re-analysis of the deposited data

Results flagged for a closer look

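Outliers were looked for among the 4 VGAT plates at E16, where the gap of a plate to its nearest neighbour was set against the range of the group. Chance alone marks about 1 in 20 such groups, and 5 of 27 measures were marked, of which 3 are the same 2 counts. Erbb3 stood at 0.381 CPM on VGAT E16 replicate 3, both in total and in intronic counts, and was found in 0.336% of its thinned wells, with 0 on the other 3 plates. Erbb4 was found in 46.8% of the thinned wells of VGAT E16 replicate 4, against 37.7%, 37.7% and 37.9% on the other plates. Nrg3 was found in 92.5% of the thinned wells of VGAT E16 replicate 2, against 97.3%, 97.6% and 97.7% on the others.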

How the results depend on the processing

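The difference in Erbb4 between the sorts kept its direction and its side of the threshold under all alternatives run. Without the filter on low counts 2 members were called with stage, 2 in Otx2 cells, 1 in Nkx2-2 cells and 1 in Dlx cells, against 0 in each, while the genes called rose from 624 to 1588, 575 to 945, 432 to 773 and 81 to 261. The counts of the members are the same in that setting, so these calls are not read as stronger evidence. In Dlx cells exonic counts and leaving out wells of high depth each gave 1, with 71 and 78 genes called. With each plate left out in turn, 0 to 1 members were called with stage, 0 to 1 in Nkx2-2 cells and 0 to 1 in Dlx cells. The plates whose absence gave 1 were VGAT P0 replicate 1, VGAT P0 replicate 2 and VGAT E16 replicate 3, with 770, 361 and 63 genes called. Signs turned only for values that passed the threshold in neither setting, and the cause was not tested. With exonic counts the log2 fold changes with stage were 0.17 for Erbb4, 0.72 for Nrg2 and 0.014 for Nrg3, those between the sorts -0.21 for Egfr, -0.59 for Nrg1 and -0.17 for Nrg2, that of the interaction -0.41 for Erbb4, that of Nrg3 in Otx2 cells -0.19, and those in Nkx2-2 cells -0.27 for Nrg1 and 0.34 for Nrg2. Without wells of high depth they were 0.019 for Nrg3 between the sorts, -0.057 for Nrg3 in Otx2 cells, 0.012 for Erbb4 in Nkx2-2 cells and 0.080 for Nrg1 in Dlx cells. Nrg3 between the sorts was 0.0070 with equal weights, Nrg2 in Six3 cells 0.012 by DESeq2 and 0.022 without the filter, Nrg3 in Otx2 cells -0.045 without the filter, and Nrg1 in Dlx cells 0.0048 with RLE size factors. With 1 plate left out, values between the sorts ran from -0.35 to 0.86 for Egfr, -0.26 to 0.48 for Nrg1 and -0.30 to 0.10 for Nrg3, and the interaction of Erbb4 from -0.080 to 0.12. In Six3 cells they ran from -0.16 to 0.40 for Erbb4, -0.18 to 0.055 for Nrg1 and -0.11 to 0.11 for Nrg2, in Otx2 cells from -0.029 to 0.033 for Nrg3, in Nkx2-2 cells from -0.12 to 0.14 for Erbb4, and in Dlx cells from -0.96 to 0.17 for Egfr and -0.15 to 0.13 for Nrg1. Differences in share were -0.0869 points for Erbb4 with Nrg2, 10.2 for Nrg1 with Nrg2 and -0.320 for Nrg2 with Nrg3 at 8000 counts, 4.24 for Nrg1 with Nrg2 and -1.11 for Nrg2 with Nrg3 at 2000 counts, -0.154 for Erbb4 with Nrg3 at 2 or more counts and -4.57 for Nrg1 with Nrg3 in exonic counts. With 1 plate left out they ran from -0.0582 to 1.66 for Erbb4 with Nrg3 and -2.05 to 1.85 for Nrg1 with Nrg2. The highest exonic level of a cluster was 461 CPM for Erbb4, 61.3 for Nrg1, 7.31 for Nrg2 and 67.7 for Nrg3, and at resolution 1.2 that of Nrg1 was 1878 CPM. For Nrg1 the highest cluster was another one in both settings, and for Nrg2 at resolution 1.2. The other 548 alternative values kept their direction and side of the threshold, and 11 passed it. Over all genes, 624 were called with stage and 226 with the replicate block, which called 0 members (log2 fold change of Egfr 1.38). The deviations of plates with the same number correlated at 0.036, 0.056 and 0.035, so the numbers were not taken as pairs. The interaction could not be fitted without a VGAT + PITX3 plate. With at most 1, 2, 10 and 32 counts on a plate, the levels of Erbb2, Erbb3, Nrg4 and Egfr are the least precise.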
